A study of Mus musculus with 10 samples.

Results

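Ahnak, Vim, Myadm, Rflnb and Cacna1i are 5 of the 9690 genes measured as mRNA per cell in sorted mouse splenic B cells. They were chosen by name because their values were high in wild-type follicular cells and because, in several of them, knockout of the histone demethylase LSD1 moved the level differently in the 2 cell types. The choice used the same libraries, so the levels and differences of these 5 genes are given below as descriptions without a test. No numeric threshold was part of the choice.

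The unstimulated cells came from spleens of female C57BL/6J mice, labelled wild type or knockout for LSD1, which Kdm1a encodes. Marginal zone B cells (MZB), which line the edge of the white pulp, were sorted as B220+ CD1d+ CD23- cells of high CD21. Follicular B cells (FoB), which recirculate through the follicles, were sorted as B220+ CD23+ cells with intermediate CD21 and no CD1d. Surface staining removed cells with Thy1.1, F4/80, CD11b, CD93 or GL7. There were 3 wild-type and 2 knockout MZB libraries and 2 wild-type and 3 knockout FoB libraries, each from 50000 cells. The labels name no Cre driver, deleted exon or age, and are silent on whether each library had its own animal. A p-value below therefore reflects the spread from library to library, which can be technical. That spread is partly shared over genes, and mostly so per cell.

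The cell cortex is the layer of actin filaments and linked proteins under the plasma membrane, and it sets a lymphocyte's shape, stiffness and motility. AHNAK is a giant scaffold protein that docks to membranes through the S100A10 and annexin A2 complex. Vimentin, the product of Vim, builds the main intermediate filament of lymphocytes, and MYADM is a multispan MARVEL domain protein of membrane rafts. Refilin B, the product of Rflnb, binds filamin A and bundles actin. CACNA1I is the pore subunit of the T-type calcium channel Cav3.3, which opens on small depolarisations.

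The sequences around the start sites show which letters the genes with a large knockout difference hold there. Of the 7 letter patterns searched on both strands, only the KLF CACCC box (CCACCC) was found in windows of Ahnak, Vim and Myadm and in no window of Rflnb or Cacna1i. A window reached from 250 bases before to 50 bases after a RefSeq start site, on GRCm38.p6, and 31.5% of all 32851 windows held the box. The stretches are printed 5′ to 3′ on the gene's strand, with KLF CACCC boxes in capitals, and in the last one the SRF CArG box too. The Vim stretch lies within an exon of Vim in the GENCODE vM21 annotation, upstream of the RefSeq start, and the other 3 stretches overlap no annotated exon of their gene.
Ahnak (chr19:8989034-8989283): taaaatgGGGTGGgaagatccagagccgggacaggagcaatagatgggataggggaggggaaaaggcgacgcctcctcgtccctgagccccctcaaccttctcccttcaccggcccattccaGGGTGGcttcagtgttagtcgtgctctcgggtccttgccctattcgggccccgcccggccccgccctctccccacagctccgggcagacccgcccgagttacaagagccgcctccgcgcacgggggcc
Vim (chr2:13574172-13574201): gagctccctcccCCACCCcccttcctcact
Myadm, window 2 (chr7:3290305-3290533): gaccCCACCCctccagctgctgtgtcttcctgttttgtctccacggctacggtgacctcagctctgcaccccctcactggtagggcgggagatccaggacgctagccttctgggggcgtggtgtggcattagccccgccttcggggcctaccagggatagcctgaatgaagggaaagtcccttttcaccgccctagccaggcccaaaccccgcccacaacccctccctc
Myadm, window 4 (chr7:3292778-3293027): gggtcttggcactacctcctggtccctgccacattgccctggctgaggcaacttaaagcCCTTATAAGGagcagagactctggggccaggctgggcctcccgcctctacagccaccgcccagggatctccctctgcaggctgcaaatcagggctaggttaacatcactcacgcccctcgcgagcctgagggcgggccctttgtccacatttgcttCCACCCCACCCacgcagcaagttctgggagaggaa

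The Ahnak window held 2 boxes, 243 and 128 bases before the start (positions -243 and -128). The Vim window held 1, at -127, and an ETS core (GGAAGT, in 23.8% of windows) at -200. Myadm has 4 start sites in the table, and their windows held 7 boxes in all, of which windows 2 and 3, offset by 1 base, share theirs. Myadm window 4 also held a CArG box at -191, a pattern found in 1.63% of windows. Its KLF boxes at -35 and -30 share 1 base. Myadm windows 2 and 3 held the E box CAGCTG, found in 16.3% of windows, and the Cacna1i window held the E box CACCTG at -236, found in 20.2%. The GFI1 core (AAATCAC or AAATCTC, in 7.07% of windows) and the AP-1 site (TGACTCA, in 5.2%) were in none of the windows of these genes, and the Rflnb window held none of the 7 patterns. A match is a description of the letters and not a shown binding site. The Rflnb window stood apart by base composition: it was 77.0% G and C with 44 CpG, more CpG than 97.8% of windows. The Ahnak and Cacna1i windows held 22 and 23 CpG, the Vim window 11, and the Myadm windows 3 to 13, where the median window held 7.

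On GRCm38.p6, Ahnak (Entrez 66395) spans chr19:8989284-9076935, and 1 exon of 17498 bases makes up nearly all of its longest transcript of 18100. Vim (Entrez 22352) lies at chr2:13574311-13582826, and Myadm (Entrez 50918) at chr7:3289038-3299355. Rflnb (Entrez 76566) lies on the minus strand at chr11:76019194-76027782. Cacna1i (Entrez 239556) spans chr15:80287238-80398292 with 37 exons. It overlaps the predicted genes Gm31319 and Gm41363, which are not analysed here.

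Reads recovered from the values ran from 4161051 to 6711847 per library. The median gene was higher in knockout than in wild-type MZB by 0.32 on the log2 scale and lower in wild-type FoB than in wild-type MZB (log2 -0.78), so each result is given per cell, as deposited, and after each library was rescaled to the same overall level. Rescaling brought these medians to 0.02 and 0.00. In bulk samples such as these, fewer cells of a type and less RNA per cell cannot be told apart. Kdm1a stood at 75% of the wild-type level in knockout MZB and at 42.5% in knockout FoB per cell (60.0% and 44.3% rescaled), and every knockout library lay below every wild-type library of its cell type. The summed level of 8 marginal zone markers was 565 to 717 mRNA per cell in wild-type MZB and 694 to 748 in knockout MZB. Over the FoB libraries it was 69.4 to 93.5. Rescaled, the sum was lower in knockout MZB, at 425 to 450, than in wild-type MZB, at 482 to 529. Of 7 follicular markers 6 were measured, and their sum, most of it the CD21 gene Cr2 in MZB, was 311 to 386 mRNA per cell in wild-type MZB, 384 to 423 in knockout MZB, 223 to 291 in wild-type FoB and 233 to 281 in knockout FoB. Rescaled, this sum was lower in knockout MZB, at 240 to 249, than in wild-type MZB, at 262 to 275. Fcer2a, which encodes the sort marker CD23, was 10.5 to 17.7 in wild-type MZB and 32.5 to 34.96 in knockout MZB (means 10.05 and 20.45 rescaled). Klf2, a factor of B cell homing, had means of 4.43 and 9.01 in these groups (3.33 and 5.42 rescaled), and the integrin gene Itgb7 4.74 and 17.4 (3.57 and 10.5 rescaled). Ccr7 was higher in knockout MZB too, by less, while Cr2 was not. The part of these markers in the differences of the 5 genes was not tested. Of 9 macrophage and monocyte markers, 2 were measured (Ly6c2 and Itgam), and the rest are not analysed here. Their sum was 0.354 to 0.735 mRNA per cell in wild-type MZB, 4.36 to 6.88 in knockout MZB, 0.337 to 0.879 in wild-type FoB and 2.45 to 3.24 in knockout FoB. The 5 B-1 markers summed to 9.22 to 11.3 in wild-type and 19.7 to 20.0 in knockout MZB, and to 4.45 to 5.23 and 5.27 to 6.49 in FoB. Of 5 dendritic cell markers, Flt3 and Cst3 were measured, with sums of 10.6 to 13.9 and 19.5 to 26.4 in MZB and of 10.05 to 12.6 and 10.3 to 15.5 in FoB. Neutrophil, erythroid and stromal markers are not analysed here.

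Ahnak, the membrane scaffold, was low in wild-type MZB, high in wild-type FoB and at a middle level in both knockouts. The wild-type MZB libraries held 0.722, 1.05 and 0.895 mRNA per cell, and the knockout MZB libraries 2.61 and 2.76. The wild-type FoB libraries held 4.34 and 5.59, and the knockout FoB libraries 2.65, 2.82 and 2.46. Neither cell type had any overlap between its knockout and wild-type libraries, and the 2 knockout groups overlapped each other. Of all genes, 56.9% were higher in knockout MZB without overlap per cell, and 6.8% were lower in knockout FoB. In MZB the mean was 0.889 ± 0.164 for the wild type (SD, n = 3) and 2.68 ± 0.109 for the knockout (SD, n = 2), and in FoB it was 4.97 ± 0.884 for the wild type (SD, n = 2) and 2.64 ± 0.184 for the knockout (SD, n = 3). The knockout mean was thus 3.02 times the wild-type mean in MZB and 53.2% of it in FoB. The wild-type cell types differed 5.59-fold, and the knockout FoB mean was 0.985 times the knockout MZB mean.

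Rescaling kept the order of the Ahnak groups except between the knockouts. The knockout MZB mean was then 2.43 times the wild-type mean, and the knockout FoB mean 53.9% of the wild-type mean. The wild-type gap between FoB and MZB widened to 10.6-fold. Relative to other genes, knockout FoB stood 2.36 times above knockout MZB, without overlap, so the near equality of the knockouts held per cell and not after rescaling. Such a gap without overlap was found in 28.4% of all genes after rescaling. The 2 wild-type FoB libraries differed most among themselves after rescaling, at 5.45 and 8.82. Between 332 and 3870 reads per library stood behind these values.

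Vim, the intermediate filament gene, had the highest level of the 5 genes in every group. How the values were scaled by gene is not given, and the worth of 1 read fell with exon length (Pearson r = -0.88 of log2 values across 9527 genes, as a description), so levels of different genes are compared as approximate. The wild-type MZB libraries held 4.12, 7.22 and 5.66 mRNA per cell, and the knockout MZB libraries 10.9 and 18.5. Both knockout MZB libraries were above all wild-type MZB libraries, and the second was higher than the first by more than the range of the wild-type libraries. The wild-type FoB libraries held 24.8 and 21.6, and the knockout FoB libraries 18.0, 23.1 and 16.8, so these groups overlapped. The knockout mean in MZB was 2.59 times the wild-type mean (14.7 ± 5.42, SD, n = 2, against 5.67 ± 1.55, SD, n = 3). In FoB the knockout mean was 83.2% of the wild-type mean (19.3 ± 3.36, SD, n = 3, against 23.2 ± 2.27, SD, n = 2). After rescaling the MZB ratio was 2.07. The knockout FoB libraries then lay just below the wild-type ones, at 26.5 to 30.3 against 31.1 and 34.1, and the mean was 85.6% of the wild type. After rescaling, 16.3% of all genes were lower in knockout FoB without overlap.

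Myadm, the MARVEL domain raft protein, had the shape of Ahnak at a lower level in MZB. The wild-type MZB libraries held 0.465, 0.972 and 0.681 mRNA per cell, from 45 to 70 reads each, and the knockout MZB libraries 1.20 and 1.93. The wild-type FoB libraries held 4.18 and 5.13, and the knockout FoB libraries 2.65, 3.36 and 2.98. As for Ahnak, the knockout libraries were all above the wild type in MZB and all below it in FoB. The knockout mean was 2.22 times the wild-type mean in MZB (1.57 ± 0.517, SD, n = 2, against 0.706 ± 0.254, SD, n = 3). It was 64.4% of it in FoB (3.0 ± 0.352, SD, n = 3, against 4.65 ± 0.669, SD, n = 2). The knockouts did not meet: knockout FoB stood 1.91 times above knockout MZB per cell and 4.65 times rescaled, from 6.59 and 12.7 times in the wild type. Of all genes, 0.516% had all knockout FoB libraries above both knockout MZB libraries per cell, and 28.4% after rescaling. Rescaling left 1.78 times in MZB and 65.5% in FoB, again without overlap. On that scale 24.2% of all genes were higher in knockout MZB without overlap, and 16.3% were lower in knockout FoB.

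**Figure D1:**
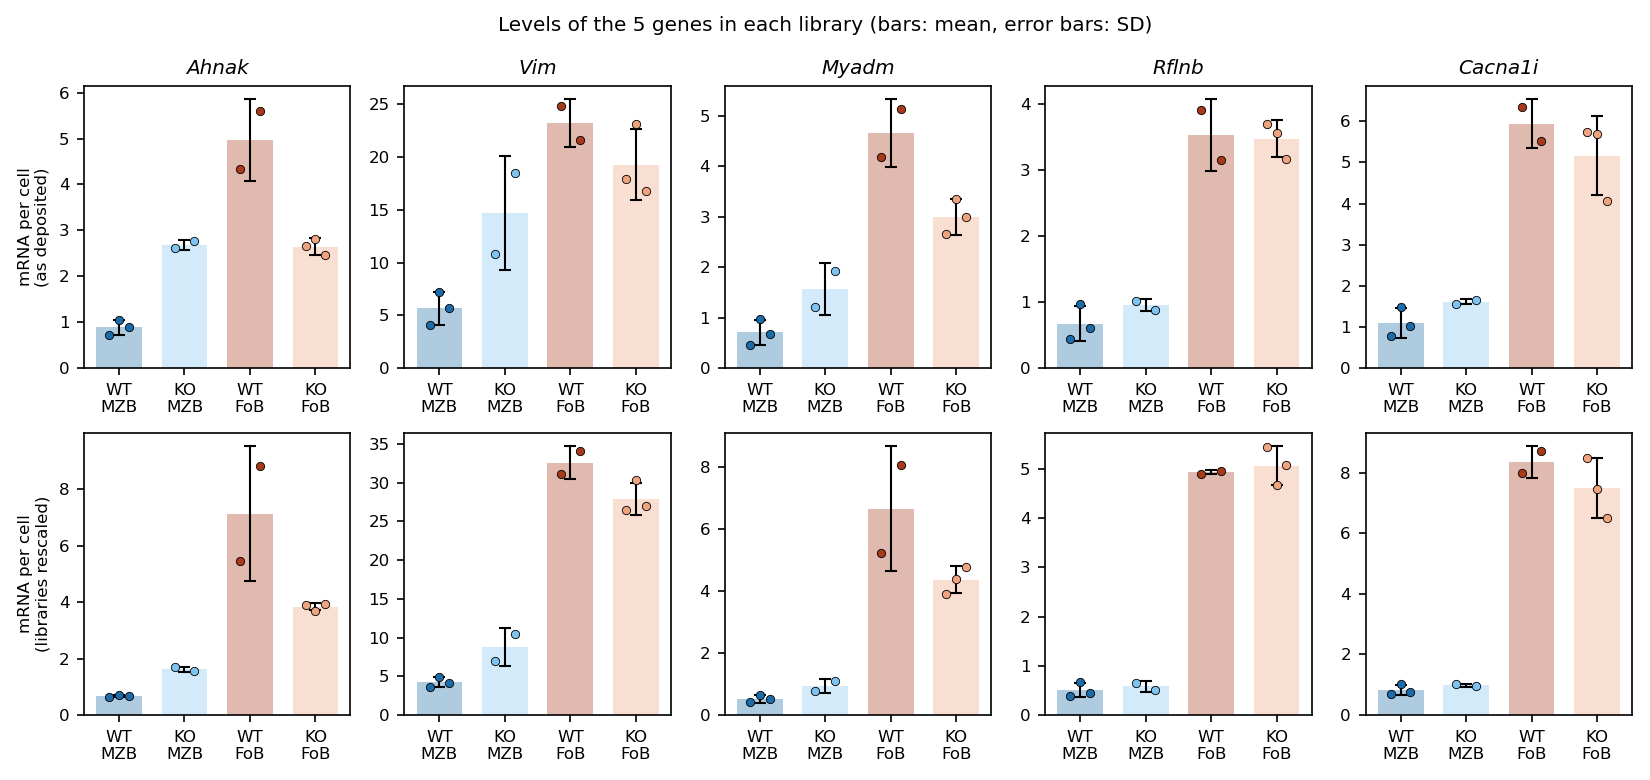
Levels of Ahnak, Vim, Myadm, Rflnb and Cacna1i in each library (points), with group means (bars) and SD (error bars), as mRNA per cell as deposited (top) and after rescaling (bottom). Mean levels are higher in knockout than in wild-type MZB in Ahnak, Vim and Myadm, and by less in Rflnb and Cacna1i. Both MZB groups stay below both FoB groups in Myadm, Rflnb and Cacna1i per cell, and in every gene after rescaling.

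Rflnb, the filamin partner, and Cacna1i, the calcium channel pore, kept a gap between the cell types in the knockout on both scales. This gap was smaller than between the wild types on both scales, and Myadm also kept one on both. After rescaling, knockout FoB also stood above knockout MZB without overlap in Ahnak (2.36-fold), Vim (3.18-fold) and Myadm (4.65-fold), as in 28.4% of all genes. Per cell, the Vim ratio was 1.31, with overlap. The Rflnb libraries held 0.443, 0.973 and 0.606 mRNA per cell in wild-type MZB and 1.02 and 0.886 in knockout MZB, and these groups overlapped. In FoB they held 3.91 and 3.15 in the wild type and 3.70, 3.57 and 3.17 in the knockout, again with overlap. The Rflnb knockout mean was 1.41 times the wild-type mean in MZB and 98.5% of it in FoB, or 1.16 times and 103% rescaled. In MZB the mean was 0.674 ± 0.272 for the wild type (SD, n = 3) and 0.951 ± 0.0922 for the knockout (SD, n = 2). In FoB it was 3.53 ± 0.541 for the wild type (SD, n = 2) and 3.48 ± 0.277 for the knockout (SD, n = 3). In MZB the Rflnb values rested on 42 to 72 reads per library.

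The Cacna1i libraries held 0.786, 1.49 and 1.01 mRNA per cell in wild-type MZB and 1.57 and 1.66 in knockout MZB. The groups did not overlap per cell, by a narrow margin, and overlapped after rescaling. The wild-type FoB libraries held 6.36 and 5.53, and the knockout FoB libraries 5.75, 5.70 and 4.06, which overlapped on both scales. The knockout mean was 1.47 times the wild-type mean in MZB (1.61 ± 0.0662, SD, n = 2, against 1.10 ± 0.358, SD, n = 3) and 1.20 times rescaled. In FoB it was 86.9% of the wild-type mean (5.17 ± 0.960, SD, n = 3, against 5.94 ± 0.590, SD, n = 2) and 89.6% rescaled. Knockout FoB stood above knockout MZB 3.20-fold per cell in Cacna1i and 3.66-fold in Rflnb, against 5.43-fold and 5.24-fold between the wild types. Rescaled, it stood 7.64-fold and 8.73-fold above, against 10.2-fold and 9.87-fold.

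On the log2(value + 0.3) scale, which understates the change of low genes, the 5 genes lay together in the wild-type contrast and apart in the knockout contrasts. The differences of wild-type MZB from wild-type FoB were -2.15 for Ahnak, -2.01 for Vim, -2.32 for Myadm, -2.01 for Rflnb and -2.19 for Cacna1i. Counted from the most FoB-high of 9690 genes, their ranks were 8, 10, 6, 11 and 7, which restates the choice. Rescaled, the differences were -2.90, -2.86, -3.06, -2.72 and -2.96. Of all genes, 1.74% had both wild-type FoB libraries above all wild-type MZB libraries per cell, and 34.8% after rescaling.

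The log2 knockout differences in MZB were 1.34 ± 0.19 for Ahnak, 1.31 ± 0.21 for Vim, 0.89 ± 0.19 for Myadm, 0.40 ± 0.19 for Rflnb and 0.49 ± 0.19 for Cacna1i (limma SE). The median of all genes was 0.32, so Rflnb and Cacna1i lay within 1 SE of it. These per-cell SE rest mostly on a spread shared over genes, and less on each gene's own libraries. Per cell, 56.9% of all genes had both knockout MZB libraries above all wild-type ones, and 24.2% after rescaling, so nothing is read from that lack of overlap. Rescaled differences were 0.99 ± 0.15, 0.98 ± 0.15, 0.58 ± 0.19, 0.15 ± 0.14 and 0.20 ± 0.13. In FoB the differences were -0.83 for Ahnak, -0.27 for Vim, -0.59 for Myadm, -0.02 for Rflnb and -0.20 for Cacna1i, where 6.8% of all genes had the knockout libraries below the wild type without overlap, and 16.3% after rescaling. Per cell, leaving out 1 library at a time moved no Ahnak or Myadm knockout difference and no Vim difference in MZB by over 1.5 times. Rescaled, the Ahnak difference in FoB of -0.80 became -0.47 when wild-type FoB library 2 was left out. The rescaled Myadm difference in FoB of -0.55 became -0.25 when that library was left out and -0.85 when library 1 was. No rescaled Vim difference moved that far. Per cell, the Vim difference in FoB was -0.17 without wild-type FoB library 1. The Rflnb difference in MZB was 0.22 without wild-type MZB library 1 and 0.61 without library 2, and in FoB, where it lay near 0, it ran from -0.16 without wild-type FoB library 2 to 0.13 without wild-type FoB library 1. Cacna1i moved to 0.32 in MZB without wild-type MZB library 1. In FoB it moved to -0.11 without wild-type FoB library 1 and to -0.05 without knockout FoB library 3. Rescaled, the Rflnb difference in MZB lay between 0.02 and 0.29, the first with knockout MZB library 1 left out and the second with wild-type MZB library 2 left out. The rescaled Cacna1i difference lay between 0.13 and 0.32 in MZB, without wild-type libraries 1 and 2, and between -0.25 and -0.07 in FoB, without knockout libraries 1 and 3.

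**Figure D2:**
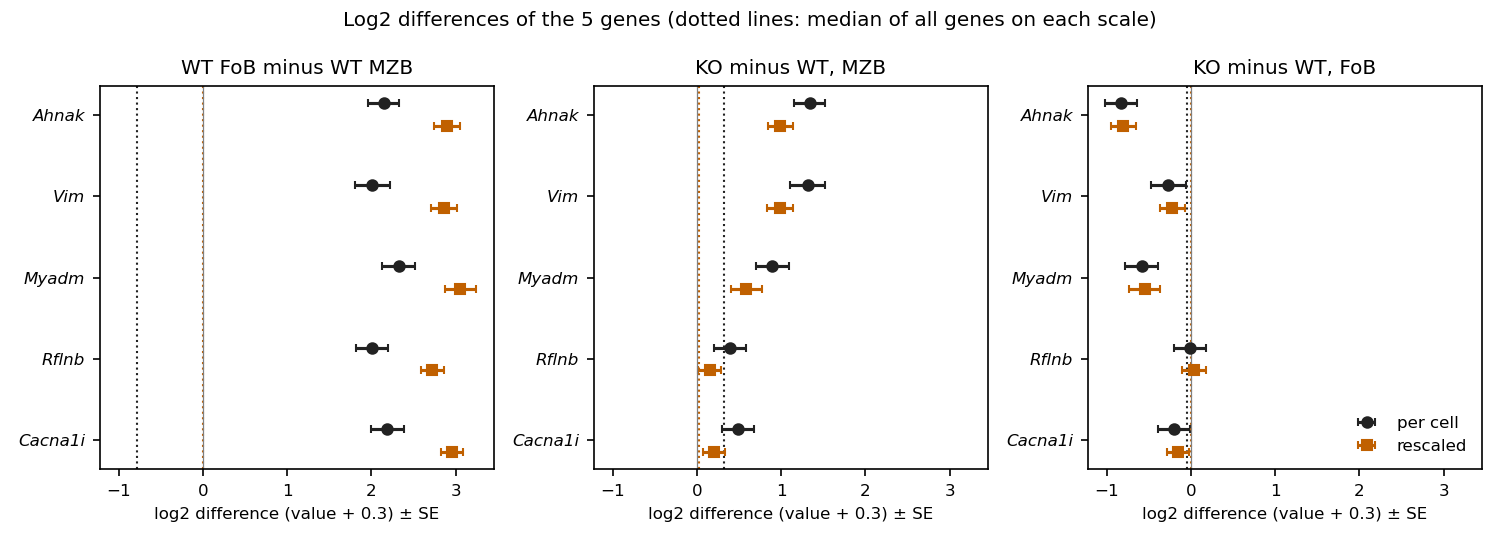
Log2 differences of the 5 genes with limma SE for wild-type FoB minus wild-type MZB, and for knockout minus wild type in MZB and in FoB, per cell (circles) and rescaled (squares), with dotted lines at the median of all genes. The wild-type differences lie between 2.01 and 3.06, while the knockout differences in MZB range from 0.15 to 1.34.

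The difference between the knockout effects, MZB minus FoB, was larger in Ahnak, Vim and Myadm than in Cacna1i, and smallest in Rflnb. It was 2.17 ± 0.26 for Ahnak, 1.59 ± 0.30 for Vim and 1.48 ± 0.27 for Myadm per cell, against 0.41 ± 0.27 for Rflnb and 0.69 ± 0.27 for Cacna1i, where the median of all genes was 0.39. The Rflnb value was 0.23 when wild-type MZB library 1 was left out, 0.62 when library 2 was, and 0.27 when wild-type FoB library 1 was. Rescaled, the values were 1.79, 1.20, 1.14, 0.11 and 0.36. Ranked from the highest of 9690 genes, Ahnak stood at 7, Vim at 24, Myadm at 29, Cacna1i at 984 and Rflnb at 4575. Rescaled, the ranks were 8, 25, 27, 843 and 3732. In 22 genes (0.227%) knockout MZB lay above wild-type MZB, knockout FoB below wild-type FoB, and wild-type FoB above wild-type MZB, all without overlap per cell, and Ahnak and Myadm were among them. After rescaling the 3 conditions held in 325 genes (3.35%), and Vim was then among them too.

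**Figure D3:**
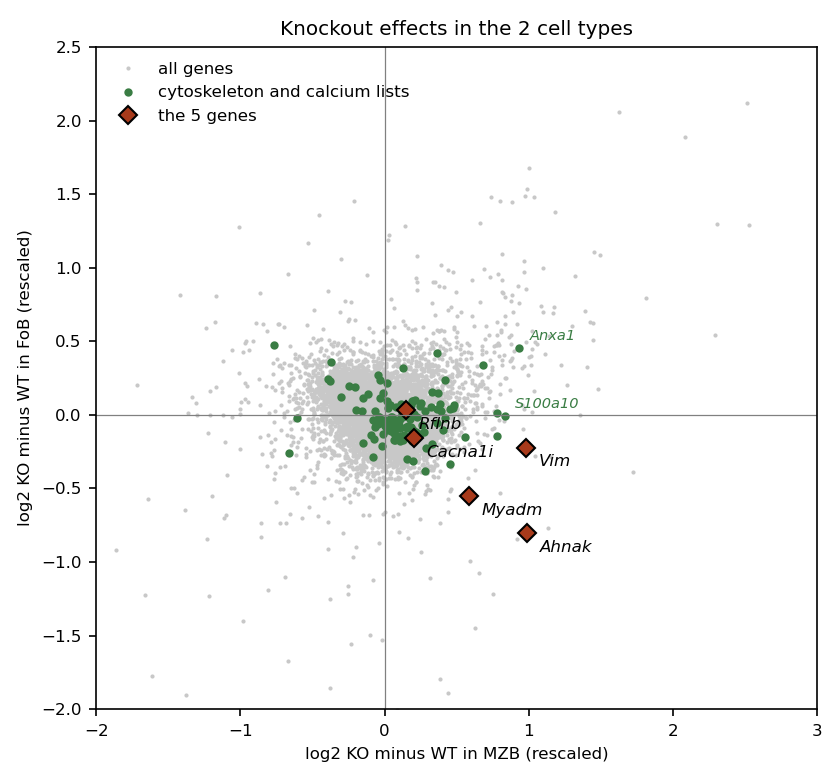
Rescaled log2 knockout differences of each gene in MZB (horizontal) and FoB (vertical), for all genes (grey), genes of the cytoskeleton and calcium lists (green) and the 5 genes (red diamonds), with 6 genes outside the axes. Ahnak, Vim and Myadm lie to the lower right, at 0.58 to 0.99 in MZB and -0.80 to -0.22 in FoB, and Rflnb and Cacna1i lie near the centre.

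Among themselves the 5 genes followed one another across the 10 libraries. The Pearson r of log2 rescaled values was 0.997 between Rflnb and Cacna1i, 0.984 between Vim and Myadm and 0.965 between Ahnak and Vim, and lowest, at 0.915, between Ahnak and Rflnb. These correlations are descriptive, and the points share their groups, so that the gap between the cell types carries most of each value. Of 5225 named genes with a mean of at least 3 mRNA per cell, those most like Ahnak were Tagln2 (r = 0.994), which encodes the actin-binding transgelin 2, the cytokine receptor chain gene Il27ra (0.987) and the DNA polymerase gene Pold1 (0.985). Those most like Vim were Ppp1r18 (0.997), Fcmr (0.996), which encodes the IgM Fc receptor, and Pck2 (0.995). Emp3 (0.994), Akna (0.991) and Sbk1 (0.991) were most like Myadm. Gpd1l (0.998), Rassf3 (0.996) and Lmo2 (0.996) were most like Rflnb, and Gimap3 (0.999), Gpd1l (0.997) and Add1 (0.996), the gene of the spectrin-binding adducin 1, were most like Cacna1i. These values of r are rescaled ones. With values per cell, r for the same pairs ran from 0.012 (Ppp1r18 with Vim) to 0.958 (Emp3 with Myadm), and was 0.742 for Tagln2 with Ahnak. It was also low for Pck2 with Vim (0.041) and Akna with Myadm (0.137). Other measures named other genes. With values per cell, only Emp3 for Myadm was named again, and with Spearman's rho, only Il27ra for Ahnak and Gimap3 for Cacna1i.

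The other genes of the cortex and of calcium entry were taken in 6 lists of 202 genes without the 5 genes above, of which 132 were measured, and were tested with limma over all genes of the table. The lists were chosen with earlier results of these data known, so their p-values and shares are not an independent test. In knockout MZB, 29 of the 132 rose and 0 fell per cell (22.0% called, against 14% of all genes), and the median was 0.43 against 0.32 for all genes. Rescaled, 13 rose and 3 fell (12.1%, against 5.26% of all genes), with a median of 0.11 against 0.02. The counts depended on single libraries. Per cell, leaving out wild-type MZB library 1 gave 12 genes, leaving out wild-type MZB library 2 gave 62, and leaving out knockout MZB library 2 gave 5. Rescaled, 8 were called without wild-type MZB library 1, 8 without library 3, 8 without knockout MZB library 1, 1 without knockout MZB library 2 and 27 without knockout FoB library 3. Of the markers above, Fcer2a, Klf2, Itgb7 and Ccr7 and the B-1, dendritic cell and macrophage sums were higher in knockout MZB as well. Their part in these counts was not tested.

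Annexins and S100 proteins, the families of the AHNAK partners annexin A2 and S100A10, had the highest share of called genes per cell: 7 of 11 rose in knockout MZB, and 3 of 11 did after rescaling (Anxa1, S100a10 and, named here after its value was seen, Anxa6). The shares of 63.6% and 27.3% stood against 14% and 5.26% of all genes. The list median was 0.56 per cell and 0.28 rescaled. S100a10, the direct AHNAK partner, held 8.26, 12.6 and 11.1 mRNA per cell in wild-type MZB and 21.1 and 27.0 in knockout MZB, without overlap. It rose by 1.16 ± 0.21 on the log2 scale (limma adjusted p = 1.91e-05), and by 0.83 ± 0.12 rescaled (limma adjusted p = 0.00379). Over the alternatives its limma adjusted p ranged from 3.21e-07 to 0.0658, and 31 of 32 passed. Anxa1, a calcium-dependent membrane binder, went from 2.67 ± 0.282 (SD, n = 3) to 6.85 ± 0.445 (SD, n = 2) mRNA per cell, and its rise of 1.27 passed in all 32 alternatives run (limma adjusted p = 1.92e-07 per cell and 0.00241 rescaled, alternatives 3.40e-09 to 0.0339). S100a6 rose by 1.11 per cell (limma adjusted p = 1.77e-05, alternatives 1.26e-07 to 0.356), from 6 to 22 reads per MZB library, and its rescaled difference of 0.78 did not pass (limma adjusted p = 0.0723). Leaving out knockout MZB library 2 lowered the count to 3 per cell and 1 rescaled, and leaving out wild-type MZB library 1 lowered the per-cell count to 4. Annexin A2 is not analysed here.

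The intermediate filament list held vimentin's relatives and their linkers. In knockout MZB, 3 of its 13 genes rose per cell (23.1%, against 14% of all genes). They were Lmnb1, which encodes lamin B1 (0.72, limma adjusted p = 0.00752, alternatives 0.000551 to 0.430), Krt222 (0.67, limma adjusted p = 0.00851, alternatives 0.00112 to 0.585) and the nesprin 3 gene Syne3 (0.68, limma adjusted p = 0.00860, alternatives 0.00304 to 0.428). Rescaled, Syne3 rose (0.37, limma adjusted p = 0.0420) and Ppl, which encodes the filament linker periplakin, fell (-0.67, limma adjusted p = 0.0145). Together they were 15.4% of the list, against 5.26% of all genes. Per cell the count that rose was 0 without knockout MZB library 2, and leaving out wild-type MZB library 1 or 2 gave 1 or 6. Rescaled it was 0 without any 1 of wild-type MZB libraries 1 and 3 and knockout MZB libraries 1 and 2, and 2 without knockout FoB library 3. Plec, the gene of the vimentin linker plectin, held 3.63 ± 0.563 mRNA per cell in knockout MZB (SD, n = 2) against 2.49 ± 0.406 in the wild type (SD, n = 3) and did not pass (limma adjusted p = 0.0570). Lamin A is not analysed here.

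Of 7 genes of MARVEL domain and related tetraspan proteins, the class of MYADM, 3 rose in knockout MZB per cell and 2 rescaled. These shares were 42.9% and 28.6%, against 14% and 5.26% of all genes. Cmtm7 rose by 0.78 (limma adjusted p = 0.00321, alternatives 0.00164 to 0.237), and by 0.46 rescaled (limma adjusted p = 0.0156). Plp2 rose by 0.75 (limma adjusted p = 0.00710, alternatives 0.000946 to 0.414), and by 0.42 rescaled (limma adjusted p = 0.0197). Marveld2 rose by 0.72 per cell only (limma adjusted p = 0.00558, alternatives 0.00331 to 0.490), with 0.41 rescaled (limma adjusted p = 0.0888). Cmtm3 and Cmtm6 differed by 0.43 and 0.45 and did not pass. Per cell the count was 0 without knockout MZB library 2, and leaving out wild-type MZB library 2 gave 5. Rescaled it was 0 without wild-type MZB library 1 or knockout MZB library 2, and 1 without any of the other 3 MZB libraries.

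Filamin A, the partner of refilin B, was among the 3 of 19 genes of filamins, crosslinkers and adhesion adaptors that rose in knockout MZB per cell. This share of 15.8% lay near the 14% of all genes, and rescaled it was 10.5% against 5.26%. Flna held 17.9, 24.3 and 22.2 mRNA per cell in wild-type MZB and 29.4 and 36.4 in knockout MZB, far above the level of Rflnb. It rose by 0.61 ± 0.21 per cell (limma adjusted p = 0.0364) and by 0.28 ± 0.07 rescaled (limma adjusted p = 0.0432), and 17 of 32 alternatives passed (limma adjusted p 0.0122 to 0.563). Lasp1, a LIM and SH3 protein of actin, rose by 0.89 (limma adjusted p = 0.000666, alternatives 7.73e-05 to 0.230), and by 0.56 rescaled (limma adjusted p = 0.00895). Sptbn1, which encodes a beta spectrin, rose by 0.61 per cell only (limma adjusted p = 0.0287, alternatives 0.00883 to 0.514). Per cell the count fell to 0 without knockout MZB library 2, and leaving out wild-type MZB library 1, 2 or 3 gave 1, 9 or 1. Rescaled it was 0 without knockout MZB library 2, and 1 without any of the other 4 MZB libraries or either wild-type FoB library.

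Of 59 genes of cortical actin, ERM proteins and myosins, 7 rose per cell in knockout MZB, a share of 11.9% below the 14% of all genes. Rescaled, 4 rose and 1 fell (8.47%, against 5.26%). Marcksl1, a membrane-bound actin regulator, rose by 1.01 (limma adjusted p = 9.00e-05, alternatives 7.68e-07 to 0.0726) and by 0.69 rescaled (limma adjusted p = 0.00432), while its relative Marcks fell when rescaled (-0.77, limma adjusted p = 0.00484). Tagln2, the gene most like Ahnak in rescaled values, rose by 0.78 (limma adjusted p = 0.00392, alternatives 0.000493 to 0.169) and by 0.46 rescaled (limma adjusted p = 0.0196). Gsn, which encodes the actin-severing gelsolin, rose by 0.75 (limma adjusted p = 0.00640, alternatives 0.000714 to 0.257) and by 0.42 rescaled (limma adjusted p = 0.0443). The ERM genes, whose proteins tie actin to the membrane, did not pass: Ezr differed by 0.48, Msn by 0.47 and Rdx by 0.20 per cell. Per cell the count that rose was 1 without knockout MZB library 2, and leaving out wild-type MZB library 1, 2 or 3 gave 2, 24 or 3, and knockout FoB library 1 gave 4. Rescaled it was 0 without knockout MZB library 2, and leaving out wild-type MZB library 1 or 3 or knockout MZB library 1 gave 1. It was 2 without wild-type MZB library 2 or either wild-type FoB library, and 7 without knockout FoB library 3.

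Of 23 genes of calcium channels, stores and pumps, 6 rose in knockout MZB per cell, and 1 rose and 1 fell rescaled. The called shares were 26.1% per cell and 8.7% rescaled, against 14% and 5.26% of all genes. Hvcn1, the voltage-gated proton channel gene, rose by 1.12 ± 0.21 per cell (limma adjusted p = 3.92e-05, alternatives 2.36e-07 to 0.0605) and by 0.78 ± 0.12 rescaled (limma adjusted p = 0.00497). Orai2, a store-operated channel gene, rose by 0.80 (limma adjusted p = 0.00181, alternatives 0.000754 to 0.250), and Kcnn4, a calcium-activated potassium channel gene, by 0.69 (limma adjusted p = 0.00873, alternatives 0.00135 to 0.548), both per cell only. Trpm2 fell rescaled (-0.61, limma adjusted p = 0.0416). Of the other voltage-gated calcium channel pore genes only Cacna1e was measured, and it ran opposite to Cacna1i between the cell types. Wild-type MZB held 14.5 ± 1.32 mRNA per cell of it (SD, n = 3), and wild-type FoB 2.11 ± 0.661 (SD, n = 2). Per cell the count that rose was 1 without knockout MZB library 2 and 2 when wild-type MZB library 1 was left out. Rescaled it was 0 without either knockout MZB library, 2 without knockout FoB library 1 or 2, and 3 without knockout FoB library 3.

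**Figure D4:**
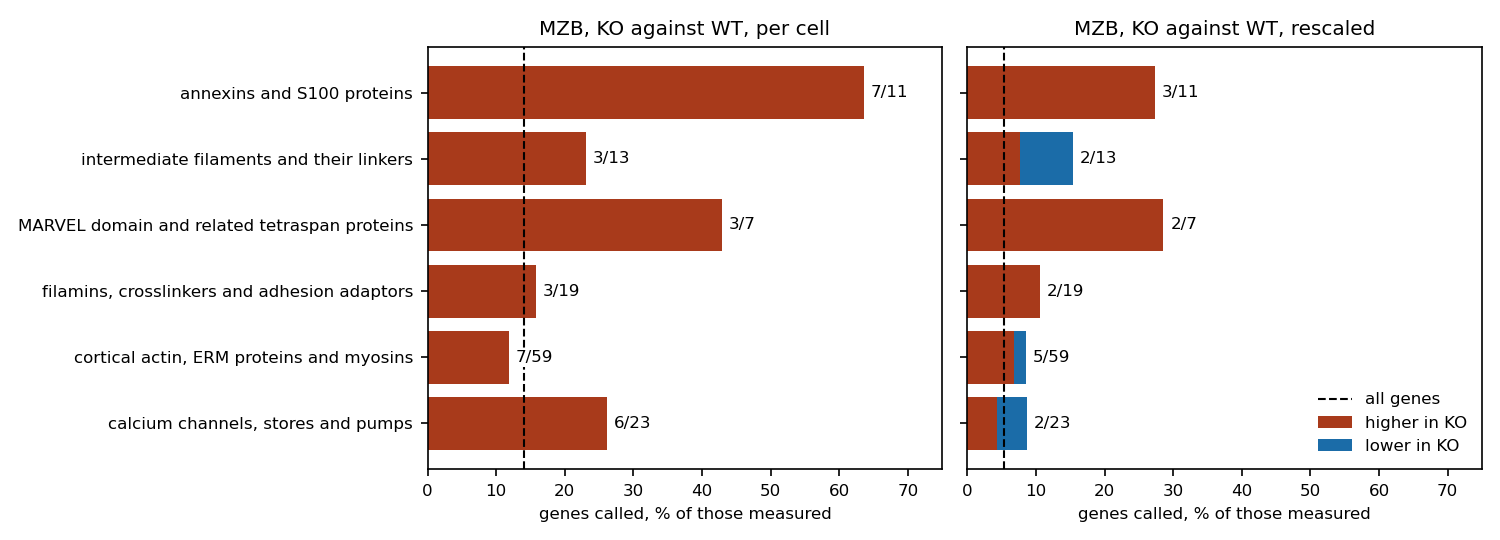
Share of the measured genes of each list that rose (red) or fell (blue) in knockout against wild-type MZB, per cell (left) and rescaled (right), with the share of all genes as a dashed line. Annexins and S100 proteins reach 7 of 11 per cell and 3 of 11 rescaled, and cortical actin genes lie below the line per cell.

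In knockout FoB, 0 of the 132 genes passed with limma on either scale, against 0.712% of all genes per cell and 0.588% rescaled. At an unadjusted p under 0.05 there were 2 genes per cell and 20 rescaled. The share of all genes at that threshold is not given here, so nothing is read from these counts. With limma voom on the recovered reads, 1 gene was called, Marcks, which rose. S100a10 held 22.8 and 19.2 mRNA per cell in the wild type and 18.4, 26.8 and 16.4 in the knockout. Flna held 35.1 and 27.6 against 26.9, 29.0 and 21.7, and Tagln2 14.8 and 14.3 against 11.5, 12.4 and 9.56. S100a10 and Flna overlapped between the groups, and the knockout libraries of Tagln2 lay below the wild type.

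The difference between the knockout effects, MZB minus FoB, passed for 5 of the 132 genes per cell (3.79%, against 2.34% of all genes), all with the higher effect in MZB. S100a6 differed by 1.27 (limma adjusted p = 0.00305, alternatives 9.09e-05 to 0.367), S100a10 by 1.22 (limma adjusted p = 0.00867, alternatives 0.000338 to 0.272) and Tagln2 by 1.17 (limma adjusted p = 0.00860, alternatives 0.000750 to 0.196). Hvcn1 differed by 1.15 (limma adjusted p = 0.0149, alternatives 0.000716 to 0.298) and Lasp1 by 1.09 (limma adjusted p = 0.0145, alternatives 0.002 to 0.325). Rescaled, 2 of the 132 passed (1.52%, against 0.31% of all genes): Tagln2 with 0.79 (limma adjusted p = 0.0437) and Marcks with -1.25 (limma adjusted p = 0.0219), named here after its value was seen. The per-cell count was 20 without wild-type MZB library 2, 18 without knockout FoB library 2, and 1 without knockout MZB library 2 or wild-type FoB library 1. The rescaled count was 9 without knockout FoB library 2. Leaving out wild-type MZB library 3 or knockout MZB library 1 gave 1, and it was 0 without wild-type MZB library 1, knockout MZB library 2, wild-type FoB library 1 or wild-type FoB library 2. All 4 contrasts share libraries, so the counts are not independent of each other.

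**Figure D5:**
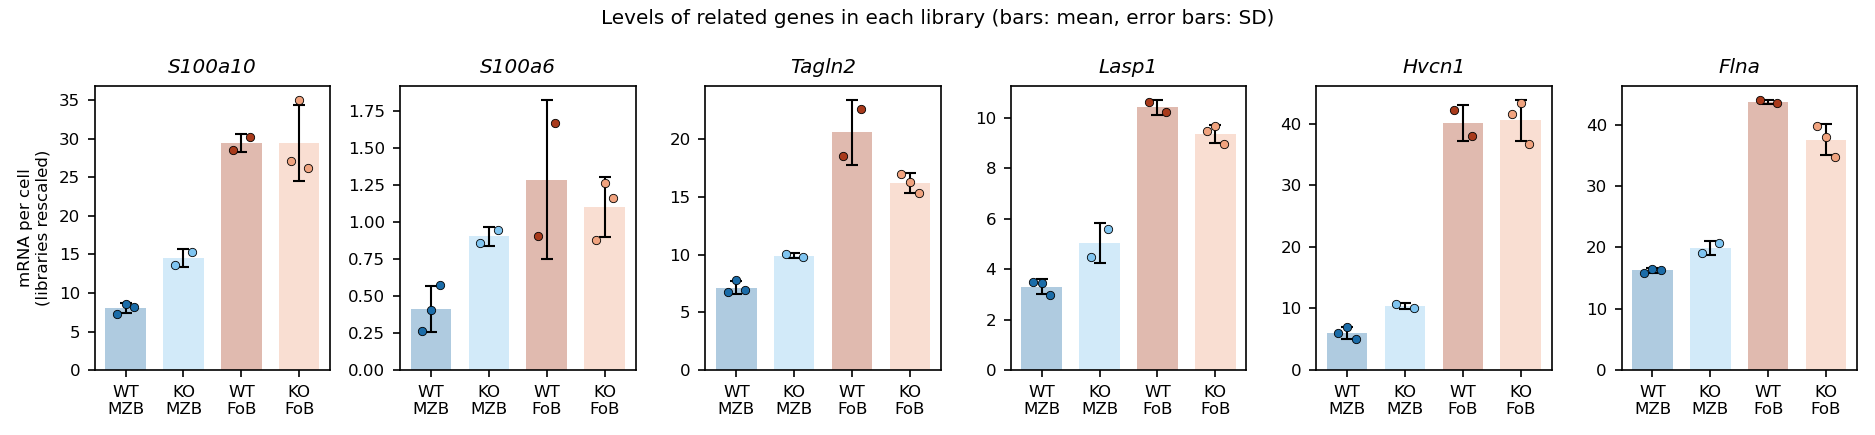
Rescaled mRNA per cell of S100a10, S100a6, Tagln2, Lasp1, Hvcn1 and Flna in each library (points), with group means (bars) and SD (error bars). These are the 5 list genes whose knockout effects differed between the cell types per cell, and the filamin A gene. In each of the 6 the rescaled knockout MZB mean lies between those of wild-type MZB and wild-type FoB. Per cell, it lies above that of wild-type FoB in each gene except Hvcn1.

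Between the wild types, 78 of the 132 list genes were higher in MZB and 9 higher in FoB per cell (65.9% called, against 85.9% of all genes), and rescaled 16 were higher in MZB and 78 in FoB (71.2%, against 49.9%). The direction of most of these genes therefore depended on the scale. Without wild-type FoB library 2, 50 were called per cell. The 9 genes higher in FoB on the per-cell scale were S100a6, S100a10, Marveld2, Flna, Lasp1, Tagln2, Marcksl1, Orai2 and Hvcn1, named after their values were seen. This contrast and the knockout contrasts share the wild-type libraries. Hvcn1 differed most, at -1.83 per cell and -2.69 rescaled (limma adjusted p = 1.08e-12 and 3.10e-08), and S100a10 differed by -0.98 and -1.84 (limma adjusted p = 2.42e-05 and 4.22e-07). In the other direction, Marcks was higher in MZB by 3.52 per cell and 2.70 rescaled, Ppl by 2.83 and 2.33, and Trpm2 by 2.77 and 2.40 (each limma adjusted p at most 3.28e-07). Cacna1e was higher in MZB by 2.64 per cell and 1.83 rescaled (limma adjusted p = 4.22e-22 and 7.21e-07), the opposite direction to Cacna1i. Cmtm3 (1.38 and 0.67), Vcl, the vinculin gene (1.26 and 0.56), Cfl2 (1.34 and 0.57) and Krt222 (1.44 and 0.80) were higher in MZB on both scales too, each past the limma test. Anxa7 and Sypl turned with the scale: they were higher in MZB by 0.67 and 0.58 per cell, and rescaled they stood at -0.15 and -0.26, which passed for Sypl only (limma adjusted p = 0.0446).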

How the data were processed

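Poly(A)-selected RNA of 50000 sorted B cells per sample was made into stranded libraries with a KAPA kit, per the labels' protocols. The deposited signal is mRNA per cell for 9690 genes in 10 libraries, in the unit that the authors name in the file. Among tools, STAR is listed, and mm10 as the build, per the submitters' processing notes. Not given in the sources used here are the counter, annotation, gene filter and factor from reads to molecules. Entrez identifiers were matched to symbols for 9681 genes and not for 9. For all genes (100%) the values came out as whole reads, within a tolerance of 0.1 reads (largest deviation 2.94e-05), and values act as reads scaled by gene and library. The libraries hold 4161051 to 6711847 such reads, and low genes rest on few of them. No library equalled another (0 identical pairs).

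Differences were fitted with limma 3.58.1 in R 4.3.3 (lmFit, contrasts and eBayes with trend) on log2(value + 0.3), with 1 coefficient per group over all 10 libraries, two-sided, Benjamini-Hochberg adjusted over 9690 genes at 0.05. A floor of 0.3 mRNA per cell in at least 2 libraries removed 0 genes. The spread behind each SE and p was moderated over genes, with 86.93 prior against 6 residual degrees of freedom per cell. Rescaled, there were 4.97 prior degrees of freedom. A per-cell SE is thus mostly that of genes of like level. For rescaled values, a factor per library was taken as the trimmed mean of its log-ratios against the average library (trims of 0.3 and 0.05, factors 0.625 to 1.76). A gene passed or was called where the per-cell adjusted p, or the rescaled one where said, was under the threshold. The fit was tested on simulated data. Promoter windows are RefSeq's, build GRCm38.p6, the assembly of mm10, and all 5 genes matched. The 5 genes and the lists were chosen with earlier results of these data known. From each list, up to 3 genes with the smallest p among those that passed per cell in a contrast were named, with direct partners of the 5 genes and, for each, the 3 genes of highest r. Alternatives were other pseudocounts, floors, scales, library weights, fits without the trend or on the compared groups alone, a replicate block, limma voom on recovered reads, and leaving out each library. Rescaled fits without 1 library, or with the block, were added once results had been seen. Python 3.11.15, pandas 2.3.3 and matplotlib 3.10.9 were used.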

Additional observations from a re-analysis of the deposited data

Results flagged for a closer look

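Knockout effects that differed between MZB and FoB are listed here. With limma, the difference of the log2 knockout effects, MZB minus FoB, passed per cell for S100a6 (1.27), S100a10 (1.22), Tagln2 (1.17), Hvcn1 (1.15) and Lasp1 (1.09), and rescaled it passed for Tagln2 (0.79) and, in the other direction, for Marcks (-1.25). For Ahnak (2.17 per cell, 1.79 rescaled) and Myadm (1.48 and 1.14), the knockout libraries lay on opposite sides of the wild type in the 2 cell types, and for Vim they did so rescaled only (1.20). These differences were not tested because the genes were chosen with them known.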

How the results depend on the processing

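Groups of 2 and 3 libraries limit these results. The count of list genes called in knockout MZB, 29 of 132, was 16 with either rescaling, 13 with the replicate block and 19 with library weights, and ran from 5 to 62 without 1 library. The rescaled fits without 1 library, chosen after seeing the data, gave 1 to 27 (1 and 8 without knockout MZB library 2 and 1, 8, 12 and 8 without wild-type MZB libraries 1, 2 and 3, 13 without either wild-type FoB library, and 17 without knockout FoB library 1), and the rescaled fit with the replicate block gave 11. In knockout FoB the count of 0 became 1 with limma voom, and stayed at 0 without any 1 library on both scales. Between the wild types the count of 87 ran from 50 to 102 without 1 library per cell and from 77 to 99 rescaled. For the difference of knockout effects, the count of 5 was 2 with either rescaling, 10 with a pseudocount of 1, 1 with the replicate block and 15 with limma voom. It ran from 1 to 20 without 1 library and, rescaled, from 0 to 9, and was 0 rescaled with the block. The cause of these changes was not tested.

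Of the log2 differences of the 5 genes under the alternatives, 467 moved by less than 1 SD between libraries, and 17 of these, all the Rflnb difference in FoB near 0, changed sign. A further 167 moved by more in the same direction, and 1 moved by more and changed sign: Rflnb, MZB minus FoB, at -0.014 in the rescaled fit without knockout MZB library 1. Of the values of genes named from the lists, 1011 kept direction and call, 257 lost the call and 28 changed sign, all of them the higher level of Anxa7 and Sypl in wild-type MZB. Anxa7 stood at -0.15 with either rescaling, -0.11 with limma voom and -0.15 rescaled with the replicate block, and from -0.17 to -0.13 rescaled without 1 library (-0.14 without wild-type MZB library 2 or 3). Sypl stood at -0.26 with either rescaling, -0.22 with limma voom, -0.24 rescaled with the replicate block, and from -0.35 to -0.19 rescaled without 1 library (-0.20 and -0.32 without wild-type FoB libraries 1 and 2). The r between libraries of their deviations from the group means ran from -0.189 to 0.205 per cell over 13 same-numbered pairs (median 0.0457). Over 24 other pairs it ran from -0.205 to 0.142 (median 0.00815). In a group of 2 the deviations mirror each other, so these values cannot decide whether the replicate numbers pair the libraries. The main fits do not pair them, and the counts with the replicate block are given above.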
